A study of Mus musculus with 4 samples.

Results

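Serotonin, histamine and tachykinin genes were followed in single pancreas cells of mice with caerulein-induced injury. The 6 members are Tph1, Ddc, Slc18a1, Slc18a2, Hdc and Tac1, named by the roles of their products, and all 6 were found among the 32288 features of the count tables. Each was described by its level, by the share of cells in which it was detected and by its detection together with the other members, per mouse and per deposited cell type. The cells labelled ECL (Tac1+) were set against genes of enterochromaffin and of enterochromaffin-like cells, the latter being the usual reading of ECL, which the deposited label does not spell out.

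Cells came from 4 mice of the genotype Ptf1aCre-ERTM;ROSAYFP/+, backcrossed into CD-1. In these mice Cre recombinase, driven by the acinar gene Ptf1a and active only after tamoxifen, switches on the fluorescent protein EYFP, so acinar cells and their descendants are marked. All 4 mice had tamoxifen and then caerulein, a cholecystokinin analogue that injures acinar cells, starting at 10 weeks of age. 2 mice were treated for 2 weeks and 2 mice for 4 weeks, and pancreas cells sorted for EYFP were profiled with droplet 3′ chemistry. No untreated pancreas is among the samples analysed here, so no level below is a change from the uninjured state.

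Serotonin is made from tryptophan by tryptophan hydroxylase, encoded by Tph1 outside the nervous system, followed by aromatic amino acid decarboxylase, encoded by Ddc. Histamine is made from histidine by histidine decarboxylase, encoded by Hdc. The vesicular monoamine transporters VMAT1 (Slc18a1) and VMAT2 (Slc18a2) load serotonin into secretory vesicles, and histamine is loaded mainly by VMAT2. Tac1 encodes the precursor of the peptides substance P and neurokinin A. In the gut, enterochromaffin cells make serotonin and many of them carry Tph1, Slc18a1 and Tac1, whereas enterochromaffin-like cells of the stomach make histamine and carry Hdc and Slc18a2.

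In the GENCODE vM21 annotation of the mouse build GRCm38 (mm10), all 6 members are protein-coding genes. Tph1 lies at chr7:46644641-46672537 on the minus strand, Hdc at chr2:126593667-126619299 on the minus strand and Tac1 at chr6:7554879-7565834 on the plus strand, with no other gene of the tables overlapping any of them. Ddc (chr11:11814101-11898144, minus) overlaps 1700042O10Rik, Slc18a1 (chr8:69037711-69089235, minus) overlaps Gm15716 and Atp6v1b2, and Slc18a2 (chr19:59260896-59296012, plus) overlaps Gm29261. All 4 of these neighbours lie on the opposite strand. The strand setting of the counting is not given in the sources used here, so reads from overlapped stretches may not be assigned with certainty.

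The 250 bases before the RefSeq start (GRCm38.p6, 5′ to 3′ on the gene's strand) are shown for Tph1, which was highest in ECL (Tac1+) cells, and for Hdc, which was not. Capitals mark matches to any of 6 short motifs searched on both strands. The ETS motif was written CCGGAA and the homeobox motif TAATTA. The E-box of proneural factors was written CAGATG and the TATA motif TATAAA. The full cAMP response element, or CRE, was TGACGTCA, and its shorter form TGACG, which overlaps the full motif, was searched separately.
Tph1, chr7:46672538-46672787: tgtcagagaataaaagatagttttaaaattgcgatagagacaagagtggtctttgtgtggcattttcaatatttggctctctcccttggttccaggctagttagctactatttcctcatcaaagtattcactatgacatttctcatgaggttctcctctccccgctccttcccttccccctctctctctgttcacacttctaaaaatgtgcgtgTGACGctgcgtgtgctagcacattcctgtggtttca
Hdc, chr2:126618679-126618928: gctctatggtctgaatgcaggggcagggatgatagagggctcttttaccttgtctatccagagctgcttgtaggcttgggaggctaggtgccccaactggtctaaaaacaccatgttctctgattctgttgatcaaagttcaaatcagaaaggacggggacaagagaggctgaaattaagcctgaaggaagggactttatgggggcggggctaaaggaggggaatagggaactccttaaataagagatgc
The Tph1 window held the short CRE form, beginning 36 bases before the start. The Hdc window, which lies in an intron of a longer noncoding Hdc transcript in GENCODE, held none of the 6. Of 32851 promoter windows of this length, 17.8% held the short CRE form, 14.4% the E-box, 4.84% the homeobox motif, 1.55% the full CRE, 12.0% the ETS motif and 12.4% the TATA motif, so each match was to a motif found in many genes. RefSeq windows were matched for 5 of the 6 members. Those of Ddc, which held the TATA motif on the opposite strand at 68 bases, and of Slc18a2, which held none of the motifs, are not printed, nor is that of Tac1, most of which lies inside the first annotated exon of the gene. The Tac1 window held the short CRE form on the opposite strand at 197 and 43 bases, the E-box at 173 and the homeobox motif at 100, and of these only the match at 197 lies before that exon.

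The label ECL (Tac1+) was carried by 217 cells of the 2586 tuft and enteroendocrine cells with a subtype, and by 43 and 71 cells of the 2-week mice and 46 and 57 of the 4-week mice. All 217 had a UMI (a counted RNA molecule) of EYFP, and all were called EEC, enteroendocrine cell, in the broader labelling of 13362 typed cells. Those typed cells are the authors' EYFP-positive selection. EYFP in all 217 may follow from that selection and is no separate sign of acinar origin. Their median UMI count was 10646 per cell, with 11062 and 12533 at 2 weeks and lower values of 8907 and 8234 at 4 weeks. Among 12 genes of a pan-endocrine list, Chga, which encodes the granule protein chromogranin A, was found in 215 of 217 cells and Chgb in all 217. Others of the list were sparser, Isl1 in 26 cells and Scg2 in 18. All 12 had a UMI, as they also had in Acinar and MucinDuctal cells, so that count does not mark an endocrine type. Levels below are CPM, the usual unit for a gene's UMIs scaled to the total UMIs of all cells of a type in a mouse, given as mean ± SD over the 4 mice of both times. The UMIs mark 3′ ends, so no division by gene length was made. The pan-endocrine list summed to 37062 CPM in ECL (Tac1+) cells and to 62.3 CPM in Acinar cells. The types had been defined on these same counts, so their order is a description and no p was computed between types.

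Tph1, the rate-limiting step of serotonin synthesis, was concentrated in ECL (Tac1+) cells. Its level there was 47.9 and 41.7 CPM in the 2-week mice and 33.5 and 47.9 CPM in the 4-week mice, a mean of 42.8 ± 6.86 (n = 4). All 4 mice were close to each other. The next of the 14 non-overlapping types, Delta (Sst+), had a single UMI in 144 cells, a mean of 0.719 CPM, and its highest mouse reached 2.88 CPM. Among ECL (Tac1+) cells, 29 of 217 carried the transcript (4, 7, 8 and 10 cells per mouse), 13.4% with an exact (Clopper-Pearson) 95% interval of 9.14 to 18.6%. Positive cells held a median of 3 UMIs and up to 14. These 29 cells were 64.4% of the 45 Tph1-positive typed cells and held 82.0% of the 128 Tph1 UMIs. In Tuft cells, which were deeper with a median of 18324 UMIs, 1 of 1280 was positive. No UMI was found in 457 Tuft-2 cells, which allows a share of cells with a UMI of up to 0.656%, nor in 494 Tuft-3 cells, which allows up to 0.607%. Here and below the limit for a count of 0 is 3 cells of the total. It bounds cells with a UMI and not cells expressing the gene, and intervals and limits cover counting error only.

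Ddc, which makes serotonin from its direct precursor and also serves dopamine synthesis, was broad across endocrine types and highest in ECL (Tac1+) cells. It measured 615 and 482 CPM at 2 weeks and 573 and 478 CPM at 4 weeks there, a mean of 537 ± 68.1 (n = 4), with 193 of 217 cells positive. Cells labelled Ppy+ (pancreatic polypeptide) followed at 378 ± 61.4 CPM with 128 of 140 cells positive, and Epsilon (Ghrl+) cells at 185 ± 63.1 CPM with 230 of 377. EEC-Progenitor (Neurog3+) cells had 99.0 ± 25.2 CPM and Delta (Sst+) cells 82.9 ± 28.2 CPM. The mice of neighbouring types in this order did not overlap between ECL (Tac1+) and Ppy+ or between Ppy+ and Epsilon (Ghrl+), while Epsilon (Ghrl+) overlapped EEC-Progenitor (Neurog3+), which overlapped Delta (Sst+). Outside the endocrine types the level was lower: 20.4 ± 8.50 CPM in Acinar.Prolif, 9.93 ± 3.81 in Acinar and 2.46 ± 0.810 in MucinDuctal cells.

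Shares of Ddc-positive cells did not follow the CPM. Acinar cells, with a median of 27362.5 UMIs, gave 855 positive cells of 3698 (23.1%), and together with Acinar.Prolif cells they made up 36.7% and 14.1% of the 2331 Ddc-positive typed cells. ECL (Tac1+) cells nevertheless held 21.0% of the 6119 Ddc UMIs. With every cell thinned to 2000 UMIs, the expected share was 56.6% in ECL (Tac1+), 49.7% in Ppy+, 25.6% in Epsilon (Ghrl+), 4.01% in Acinar.Prolif and 2.23% in Acinar cells. Cells with no deposited type that carried B-cell markers, which should lack the gene, were positive in 8 of 638 (1.25%) at a median of 3393.5 UMIs. This is 2.19 CPM (counting interval 0.945 to 4.31), close to the MucinDuctal level.

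Slc18a1 and Slc18a2, the vesicle transporters, were highest in different endocrine types. Slc18a1 measured 39.6 and 40.7 CPM at 2 weeks and 55.8 and 76.3 CPM at 4 weeks in ECL (Tac1+) cells, a mean of 53.1 ± 17.2 (n = 4), with 42 of 217 cells positive (19.4%, interval 14.3 to 25.2%). Epsilon (Ghrl+) cells came next at 5.40 ± 2.05 CPM with 23 of 377 positive, then Ppy+ at 2.89 ± 1.33 CPM. No mouse of either reached the lowest ECL (Tac1+) mouse. In Tuft cells 15 of 1280 were positive (1.17%).

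Slc18a2 was highest in Epsilon (Ghrl+) cells, the cells labelled for the hormone ghrelin. It measured 44.0 and 27.0 CPM at 2 weeks and 40.5 and 34.4 CPM at 4 weeks there, a mean of 36.5 ± 7.45 (n = 4), with 79 of 377 cells positive (21.0%), and these cells held 70.4% of the 311 UMIs. Single cells weighed heavily, with up to 34 UMIs in a cell. In ECL (Tac1+) cells it measured 6.25 and 1.04 CPM at 2 weeks and 29.0 and 7.10 CPM at 4 weeks, a mean of 10.8 ± 12.4, from 21 UMIs in 13 cells. The first 4-week mouse stood apart, and without it the mean was 4.80 CPM. Its 29.0 CPM lay above the lowest Epsilon (Ghrl+) mouse, so the types overlapped. No UMI of Tph1, Slc18a1, Slc18a2 or Tac1 was found in the 638 B-cell-marked cells, which allows up to 0.470% of such shallow cells with a UMI for each.

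Hdc, which makes histamine, was rare in every typed population. In ECL (Tac1+) cells its level was 8.33 and 0 CPM at 2 weeks and 0 and 1.78 CPM at 4 weeks, from 5 cells of 217 with 1 UMI each (2.30%, interval 0.752 to 5.29%). 4 of these 5 cells came from the first 2-week mouse, and without it the mean of 2.53 CPM was 0.592. Epsilon (Ghrl+) cells had 15.2, 0, 6.14 and 6.70 CPM over the same mice, from 13 of 377 positive cells, but 25 of their 46 UMIs lay in a single cell. Ppy+ cells had 5.07 and 9.05 CPM at 2 weeks and 1.60 and 2.06 CPM at 4 weeks, from 8 of 140 cells. The mice of these 3 types overlapped, so their order is not resolved. Only 38 typed cells were positive in all. Hdc was found in 3 of 3698 Acinar cells (0.0811%) and in 0 of 1280 Tuft cells, which allows up to 0.234% with a UMI, both at greater depth per cell than the endocrine types. Of the 638 B-cell-marked cells 1 had a UMI of Hdc.

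Tac1 is in the label of the ECL (Tac1+) cells, so its high level there describes the labelling. It measured 615 and 300 CPM at 2 weeks and 562 and 952 CPM at 4 weeks, a mean of 607 ± 268 (n = 4). Even so, only 113 of 217 cells (52.1%) had a UMI, 20, 24, 30 and 39 per mouse. Positive cells held a median of 4 UMIs, and the highest, with 173, held 12.6% of the Tac1 UMIs of the type. ECL (Tac1+) cells held 89.1% of the 1538 Tac1 UMIs of typed cells and were 59.5% of the 190 Tac1-positive typed cells. The next levels rested on few cells: 5.86 CPM in Epsilon (Ghrl+), where 23 of 28 UMIs were in 1 cell, and 5.03 CPM in Delta (Sst+), where 7 UMIs were in 1 cell. Acinar/MucinDuctal cells followed at 2.85 ± 2.14 CPM, with 65 UMIs in 35 cells, 18.4% of the positive cells. In MucinDuctal cells 43 UMIs were in 15 cells. Tac2 and Tac4, the other tachykinin genes, had no UMI in ECL (Tac1+) cells.

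**Figure D1:**
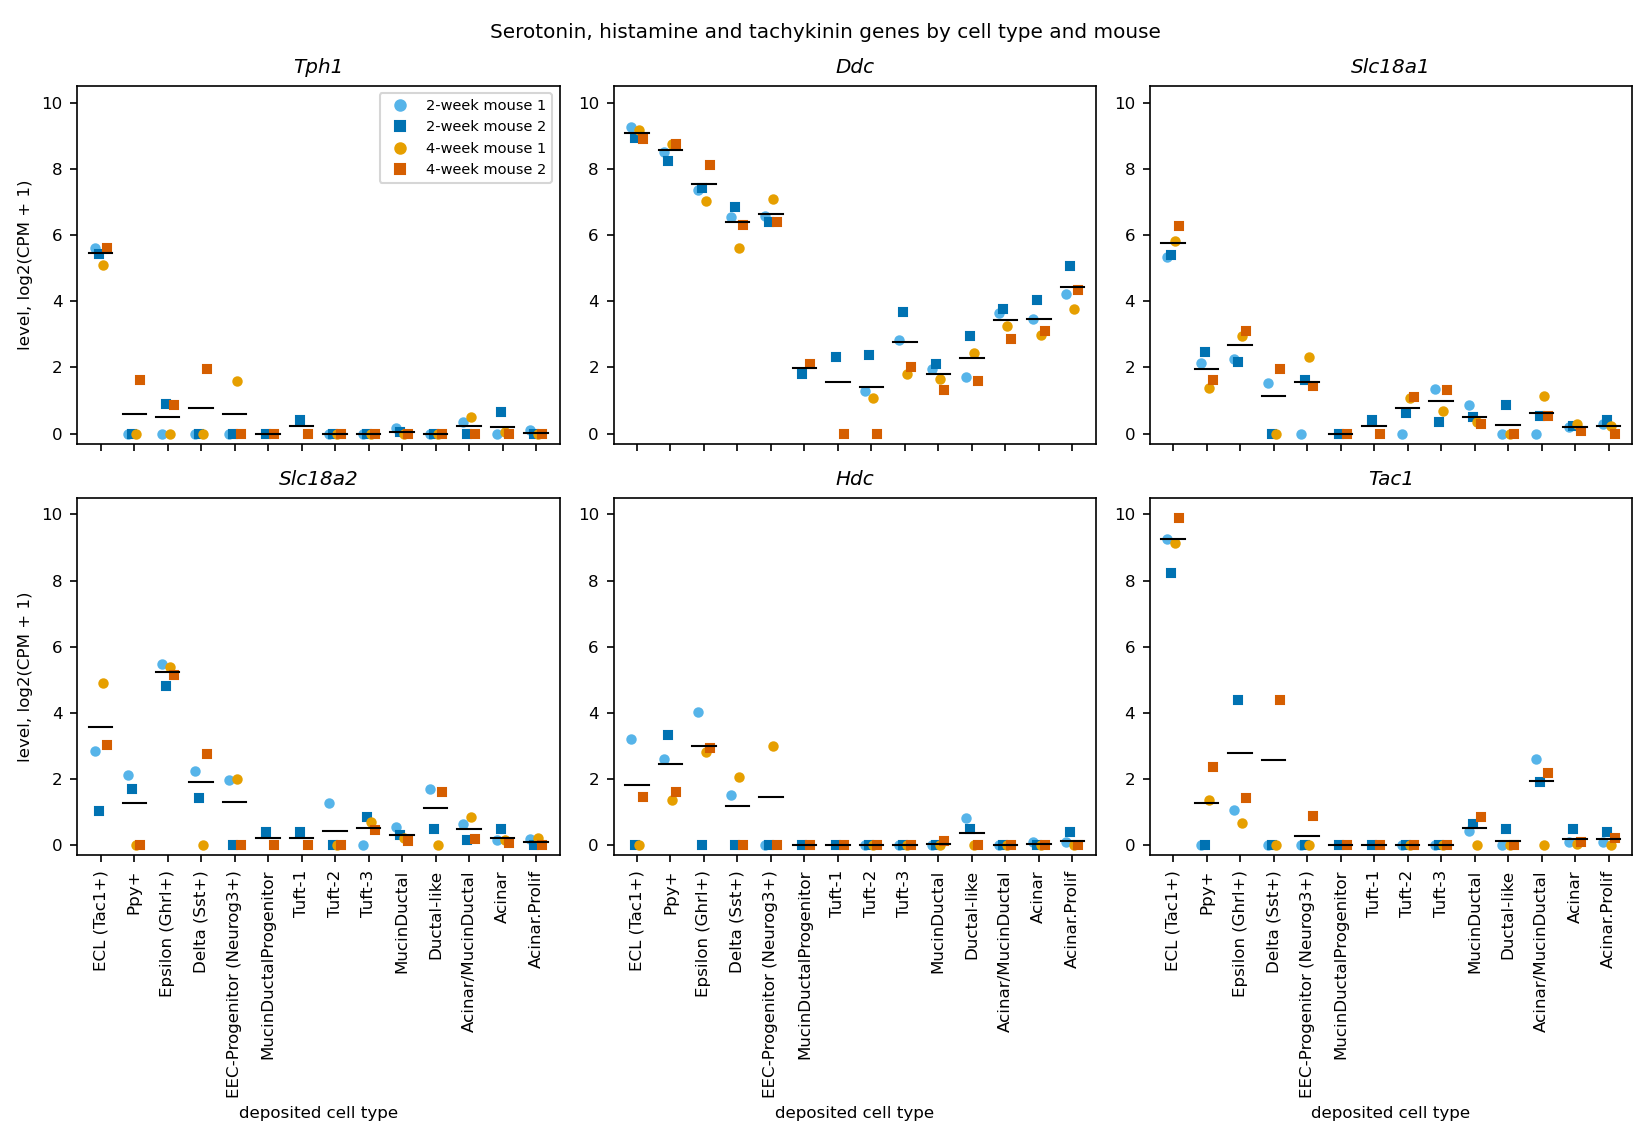
Level of the 6 members, log2(CPM + 1) of summed counts, in each of 14 non-overlapping deposited cell types, with each point a mouse with at least 20 cells of the type and each line the log2 value of the mean. Tph1, Slc18a1 and Tac1 are highest in ECL (Tac1+) cells with no mouse of another type reaching them, Ddc spreads over the endocrine types, and Slc18a2 and Hdc have their highest means in Epsilon (Ghrl+) cells.

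The identity question was put with 2 lists of genes. Of 10 genes listed for enterochromaffin identity, 9 had a UMI in ECL (Tac1+) cells, as many as in Ppy+, MucinDuctal and Acinar cells. In ECL (Tac1+) cells 7 averaged at least 10 CPM, against 3 in Ppy+ and 3 in Delta (Sst+) cells. In all, 8 were higher there than in any other of the 14 types. Tac1, which is in the label, counts among the 7 and the 8, and Trpa1, found in few cells, among the 8. Lmx1a, a transcription factor that acts in enterochromaffin cells, measured 31.1 ± 6.21 CPM in 45 of 217 cells, against 0.515 CPM in the next type, Ppy+. Fev, a transcription factor of serotonin-producing cells, measured 342 ± 26.9 CPM in 180 cells, and Slc38a11, an amino acid transporter gene, 56.8 ± 16.7 CPM in 79 cells. Cartpt, which encodes the peptide CART, varied from 22.9 to 2246 CPM between mice. Other genes of the list were scarcely detected or not detected. Piezo2, a mechanosensitive channel, had no UMI in 217 cells, which allows up to 1.38% of cells with a UMI. Trpa1, an irritant-sensing channel, had UMIs in 3 cells of a single mouse, and Adra2a, an adrenergic receptor, measured 5.87 CPM against 57.7 CPM in MucinDuctal cells. The list shares Tph1, Slc18a1 and Tac1 with the members, and Cartpt (954 CPM) and the label gene Tac1 (607 CPM) made up most of its sum. That sum was 2096 CPM in ECL (Tac1+) cells, from 839 to 3368 between mice, compared with 155 in Delta (Sst+), 118 in Epsilon (Ghrl+) and 108 in Ppy+ cells.

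Of 5 genes listed for enterochromaffin-like identity, 3 had a UMI in ECL (Tac1+) cells, only Slc18a2 averaged at least 10 CPM and none was highest there. Cckbr, the gastrin receptor through which gastric enterochromaffin-like cells are driven, and Adcyap1r1, the PACAP receptor, had no UMI. Sstr2, a somatostatin receptor, measured 3.90 CPM. The list summed to 17.3 CPM (5.21 to 31.2 between mice) in ECL (Tac1+) and to 54.8 CPM (42.7 to 70.7) in Epsilon (Ghrl+) cells. The ranges over mice did not overlap. By cell, 29 of 217 ECL (Tac1+) cells had Tph1 without Hdc, 5 had Hdc without Tph1, none had both and 183 had neither. For the transporters, 33 cells had Slc18a1 only, 4 had Slc18a2 only and 9 had both. The counts for Tph1 alone were 4, 7, 8 and 10 over the mice against 4, 0, 0 and 1 for Hdc alone, equal in the first 2-week mouse. The deposited label ECL, where it is read as enterochromaffin-like, therefore stood on cells in which Hdc was near the limit of detection. The label is kept here as the name of the cells.

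**Figure D2:**
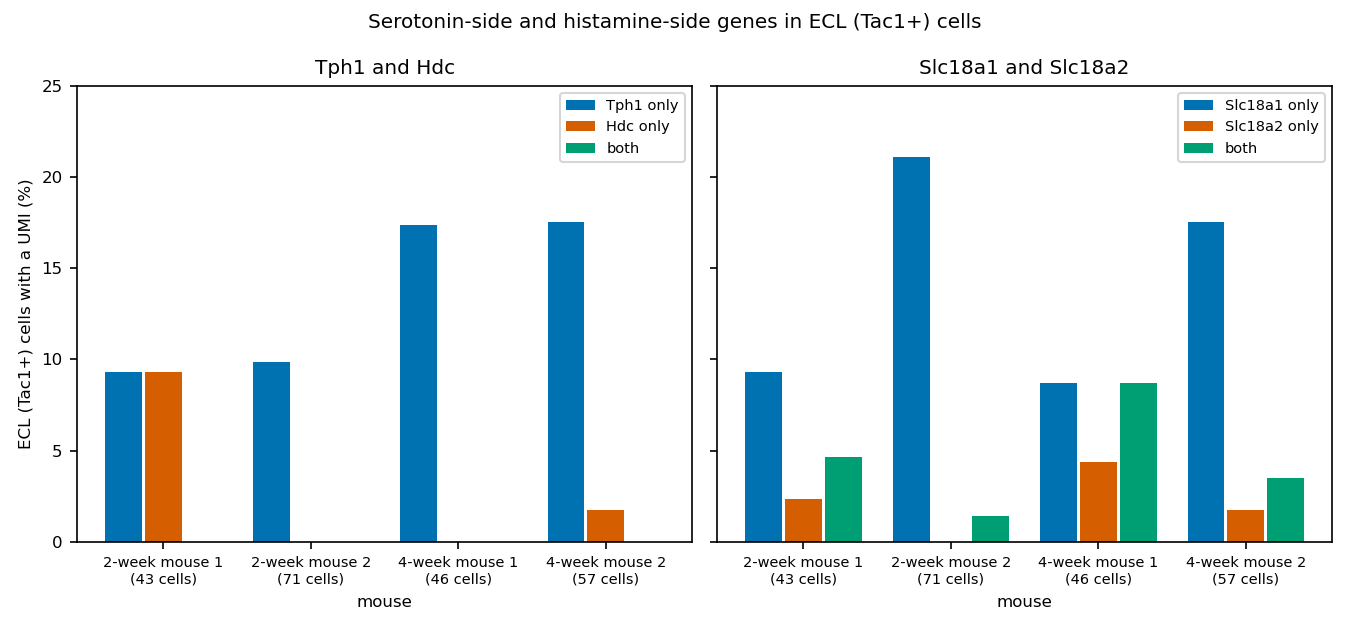
Percent of the ECL (Tac1+) cells of each mouse with a UMI of Tph1 only, Hdc only or both (left), and of Slc18a1 only, Slc18a2 only or both (right), with a bar for each share. No cell has Tph1 and Hdc together, and the Tph1 share equals the Hdc share in the first 2-week mouse and exceeds it in the other mice. Most cells of each mouse have neither transporter. Among cells with a UMI of either, Slc18a1 without Slc18a2 is the commonest state except in the first 4-week mouse, where it equals the share with both.

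Detection of the members together was counted cell by cell in the ECL (Tac1+) cells and set against the number expected if the 2 genes of a pair were spread independently within each mouse. Tph1 and Slc18a1 met in 24 cells where 5.63 were expected, 4.26 times as many. The excess was present in each mouse, at 5.38, 4.44, 3.59 and 4.28 times, with Slc18a1 found in 3 of 4, 7 of 7, 5 of 8 and 9 of 10 Tph1-positive cells. Slc18a1 and Slc18a2 met in 9 cells against 2.32 expected, and Tph1 and Slc18a2 in 6 against 1.95. Tph1 and Tac1 met in 25 cells against 16.3 expected, a smaller excess of 1.54 times, from 1.08 to 2.54 between mice. Ddc, present in most cells, met Tac1 in 106 cells against 101 expected. The 5 Hdc cells included none with Tph1, Slc18a1 or Slc18a2, but only 0.548, 0.769 and 0.332 such cells were expected, so an absence could not be detected at this depth. With every cell thinned to 2000 UMIs, the ratio was 5.76 for Tph1 with Slc18a1, 5.29 for Slc18a1 with Slc18a2 and 1.60 for Tph1 with Tac1. The 5.29 stood for 2.24 cells against 0.423, with 1.64 of the 2.24 in the first 4-week mouse. Thinned ratios rest on fewer cells and are not read as stronger than those at full depth.

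The commonest combinations in the 217 cells were Ddc alone in 70 and Ddc with Tac1 in 69. The full serotonin set with the peptide, Tph1, Ddc, Slc18a1 and Tac1, was found without the others in 15 cells, and with Slc18a2 in 5 more. No member was detected in 16 cells. In Epsilon (Ghrl+) cells, by comparison, Slc18a1 and Slc18a2 met in 9 cells against 4.89 expected, and Ddc and Slc18a2 in 37 against 47.9. The second ratio had no common direction, at 0.595 and 0.457 after 2 weeks but 1.15 and 0.890 after 4 weeks. No test was made on cells, since cells of a mouse are not replicates.

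**Figure D3:**
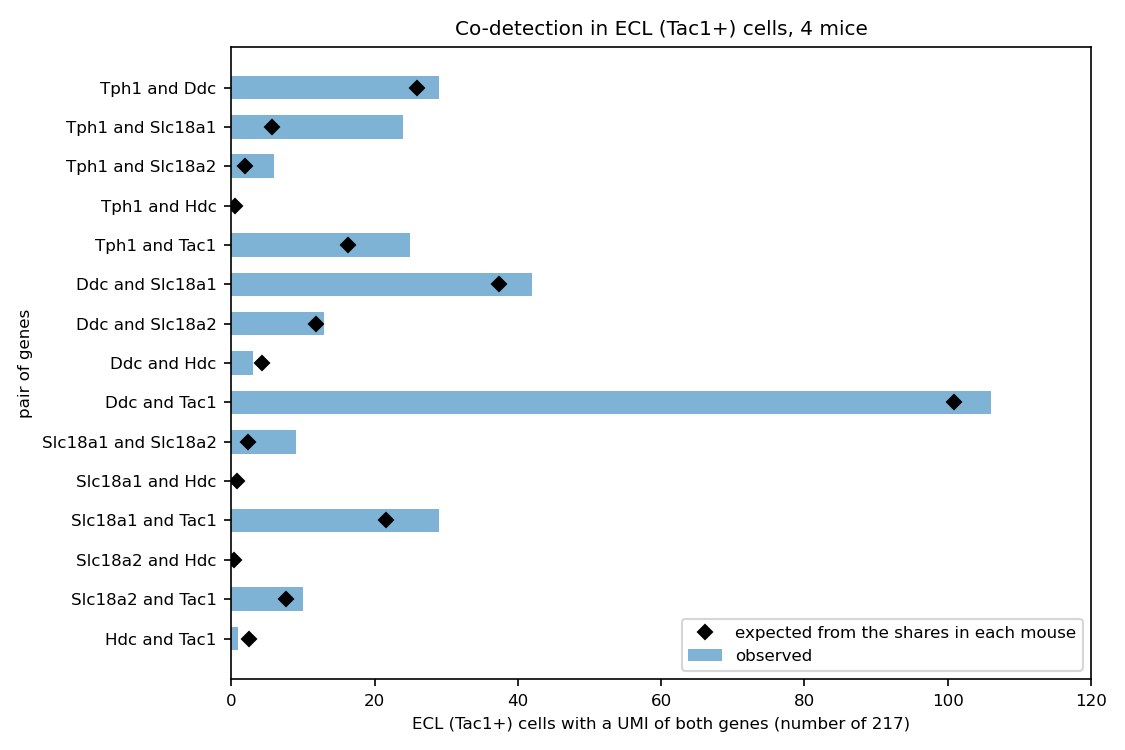
Number of ECL (Tac1+) cells with a UMI of both genes of each pair of members (bars, all 4 mice) and the number expected from the shares within each mouse (diamonds). Tph1 with Slc18a1 reaches 24 cells against 5.63 expected and Slc18a1 with Slc18a2 9 against 2.32, whereas Ddc with Tac1 lies close to its expected number.

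Splitting the ECL (Tac1+) cells at a UMI of Tph1 described what else the 29 positive cells carried. Pooled over mice, their median was 8949 UMIs, against 11064.5 in the 188 others. The shallower 4-week mice gave 8 and 10 of the 29, and the medians were not compared within mice. Slc18a1 measured 306 CPM in the cells with Tph1 and 14.0 CPM in the cells without, pooled over mice, and by mouse 175 against 21.3, 319 against 12.6, 283 against 15.7 and 384 against 8.66. Ddc measured 963 against 459 CPM, higher in all 4 mice. Lmx1a measured 112 against 17.3 CPM and was found in 20 of 29 against 25 of 188 cells. Fev (548 against 316 CPM), Nkx2-2 (217 against 150), Slc38a11 (82.9 against 47.7), Chga (7779 against 2685) and Chgb (52834 against 22360) were also higher with Tph1 in each mouse. All 3 Trpa1-positive cells were Tph1-positive. Tac1 was higher in 3 of 4 mice, 1387 against 438 CPM pooled, but the second 4-week mouse had 847 against 975 CPM.

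Some genes lay lower in the Tph1-positive cells. Cpe, a prohormone-processing enzyme, measured 711 against 1106 CPM and Scg2, a granule protein, 3.19 against 29.0 CPM, both lower in all 4 mice. The Scg2 UMIs of the Tph1-positive cells numbered 0, 0, 0 and 1 over the mice, so its direction rests on very few counts. In the second 4-week mouse Scg2 measured 9.85 against 10.8 CPM. Isl1, an endocrine transcription factor, had 1 positive cell of 29 against 25 of 188. The incretin hormone Gip was found in 1 of 29 cells with Tph1 and in 84 of 188 without, and gastrin (Gast) in 2 against 54. The Gip level was 8247 CPM with Tph1 and 7426 CPM without, and the 1 positive cell, from the second 4-week mouse, held all 2587 Gip UMIs of the cells with Tph1. Splitting the same cells at Tac1, 113 with and 104 without, gave no common direction for the levels of these hormones. By share of cells, Gast was found more often with Tac1 in each mouse, in 39 of 113 against 17 of 104 in all. The share with Gip was higher with Tac1 only in the 4-week mice. Gast by mouse was 1561 against 1469, 6.22 against 9.41, 23019 against 1221 and 2088 against 2118 CPM, so only the first 4-week mouse stood far apart. Gip was lower with Tac1 in both 2-week mice (21393 against 21669 and 59.1 against 726 CPM) and higher in both 4-week mice (4736 against 654 and 14237 against 2712 CPM). Ddc was lower with Tac1 in 3 of 4 mice, 510 against 537 CPM pooled. Its share of positive cells was higher with Tac1 in each mouse, 106 of 113 against 87 of 104 in all. Tph1 was found in 25 of the 113 (22.1%) and 4 of the 104 (3.85%). A transcript present at a few copies is missed in many cells, so both splits divide cells by detection and not by expression.

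**Figure D4:**
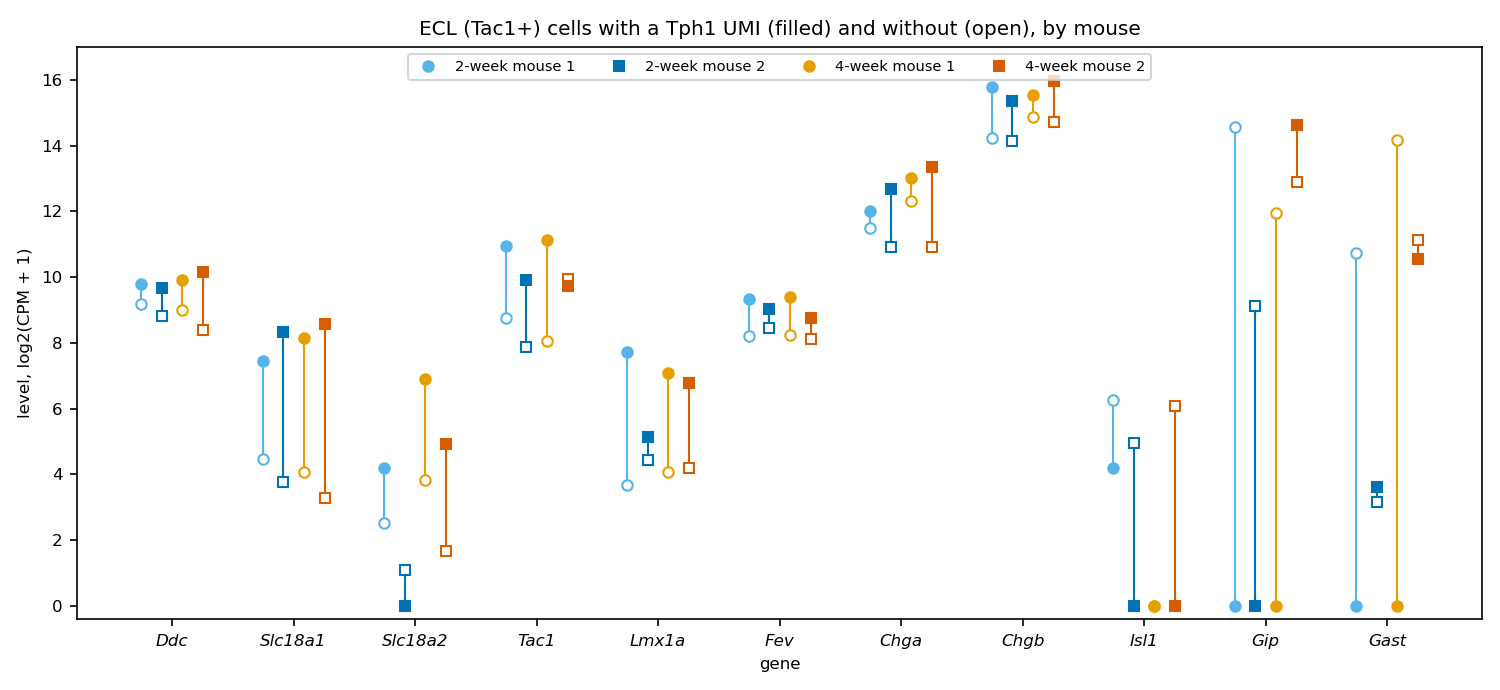
Level, log2(CPM + 1), of 11 genes in ECL (Tac1+) cells with a UMI of Tph1 (filled) and without (open), the joined pair of points being 1 mouse. Ddc, Slc18a1, Lmx1a, Fev, Chga and Chgb are higher with Tph1 in all 4 mice and Tac1 in 3 of 4, while Isl1, Gip and Gast are at 0 in several of the Tph1-positive groups.

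The rest of the amine pathways was described from fixed lists. Tetrahydrobiopterin, the cofactor that tryptophan hydroxylase needs, is made and recycled by the products of 6 listed genes (Gchfr among them encodes a regulator). All 6 had UMIs in ECL (Tac1+) cells and 5 averaged at least 10 CPM. Every other of the 14 types also had 5 at that level, except Acinar (3) and Acinar.Prolif (4). Gch1, the first enzyme of that synthesis, measured 530 ± 167 CPM (354 to 756) in 195 of 217 cells, against 396 ± 48.1 in Delta (Sst+) cells, and the ranges over mice overlapped. Pcbd1 measured 235, Qdpr 197, Pts 88.4, Spr 62.6 and Gchfr 2.00 CPM. Gch1 did not separate cells with Tph1 (583 CPM) from those without (573 CPM), which gave 2 mice in each direction. Tph2, the neuronal tryptophan hydroxylase, had no UMI in ECL (Tac1+) cells.

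For removal of amines, 3 of 5 listed genes had a UMI in ECL (Tac1+) cells: Maob, a monoamine oxidase, at 11.3 ± 3.16 CPM in 21 cells, Maoa at 3.60 CPM and the serotonin transporter Slc6a4 in 1 cell. Among 14 serotonin receptor genes 13 had no UMI there, and Htr5b was found in 2 cells. Of the histamine genes besides Hdc, the degrading enzyme Hnmt measured 2.42 CPM and Aoc1 had no UMI. The receptor Hrh3 was found in 5 cells and Hrh2 in 1, and Hrh1 and Hrh4 in none. The tachykinin receptors Tacr1, Tacr2 and Tacr3 and the peptidase gene Mme had no UMI, and Ace was found in 1 cell. Th, the first enzyme of dopamine synthesis, which would share Ddc, measured 5.10 CPM in 11 cells, and Dbh and Pnmt had no UMI.

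Markers of other cells that make or carry these amines were looked for in the same 217 cells. Of 11 mast cell and basophil genes 9 had no UMI, among them Cpa3, Ms4a2, Fcer1a, Tpsb2 and Mcpt8. The list's sum of 100 CPM (88.6 to 107 between mice) was nearly all Kit, at 99.8 ± 8.0 CPM in 120 cells, a receptor that Tuft-1 cells carried at 263 CPM. None of 6 neutrophil and none of 4 T-cell genes had a UMI. The platelet list summed to 2.30 CPM, the macrophage list to 23.6, the B-cell list to 29.9, the tuft list to 30.0 and the neuron and Schwann list to 121, of which Snap25, which endocrine cells also use for secretion, gave 93.6. Acinar enzymes summed to 19304 CPM (12871 to 25779), against 12483 in Epsilon (Ghrl+) and 408363 in Acinar cells. No doublet caller was run, and 139 cells of the merged table shared a barcode with a cell of another mouse, none of them ECL (Tac1+).

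Transcripts of another hormone reached 10000 CPM (1% of the cell's UMIs) in some ECL (Tac1+) cells. By this minimum, 27 cells were rich in Gip (14, 1, 2 and 10 per mouse), 14 in Gast (2, 0, 7 and 5), 2 in Cartpt and 1, from the second 2-week mouse, in insulin. The 27 Gip-rich cells included 14 with Tac1, 1 with Tph1 and 2 of the 5 with Hdc, and the 14 Gast-rich cells 9 with Tac1, none with Tph1 and 1 with Hdc. Without the 36 hormone-rich cells Tph1 averaged 54.4 CPM. The other 5 members then moved by less than the spread between mice.

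The genes most like each member were named by the Pearson correlation of log2(CPM + 1) over the 14 types, among 5306 genes that reached 50 CPM in a type. These types share libraries, and the values are descriptions. For Tph1, both insulin genes ranked highest (r = 0.97), but the single insulin-rich cell set this, and with 4-week mice alone r was 0.13 for Ins2 and -0.25 for Ins1. Without that cell, and among 5314 genes, the closest were Tac1 (0.95), Slc18a1 (0.92), Nkx6-1 (0.88), Cartpt (0.88) and Gast (0.86). Each of these, and each gene named next for Slc18a1 and Tac1, was highest in ECL (Tac1+) cells. Tph1 averaged at most 0.719 CPM in any other type, so its r rested mostly on that 1 type. Within ECL (Tac1+) cells Gast was found in 2 of 29 cells with Tph1 and in 54 of 188 without. For Slc18a1 they were Tac1 (0.92), Tmem163 (0.90), Zfp174 (0.88), Etnk1 (0.87) and Slc38a11 (0.87), and for Tac1 they were Slc18a1, Gast (0.91), Cartpt (0.91), Chgb (0.85) and Slc38a11 (0.84). Ddc, broad over endocrine types, was closest to Kif5c, Lpl, Psd, Plcxd3 and Pnmal1 (0.94 to 0.95). Slc18a2 was closest to Rogdi, Prrg2, A1cf, Stx1a and Zcchc12 (0.84 to 0.86), and genes close to Hdc included Slc8a1 (0.95), Zcchc12 (0.95), A1cf (0.94) and Rprm (0.94). A1cf and Zcchc12, near both Slc18a2 and Hdc, were highest in Epsilon (Ghrl+) cells. Hdc had only 79 UMIs over all typed cells, 25 of them in 1 Epsilon (Ghrl+) cell, so its r values rest on few counts.

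The labels offer a single comparison of samples, 4 weeks against 2 weeks. No member changed past the threshold in ECL (Tac1+) cells by edgeR's quasi-likelihood test (Benjamini-Hochberg adjusted p under 0.05), which called 6 of 7349 genes (0.0816%). By the same test, 380 of the 7349 genes had an unadjusted p under 0.05. Among the 4 members tested there, Slc18a1 had an unadjusted p of 0.0300: its log2 difference was 0.70 (SE 0.29, adjusted p = 0.929), and both 4-week mice lay above both 2-week mice, a separation that 32.6% of the 7349 genes showed in either direction. Tac1 differed by 0.74 (SE 0.44, adjusted p = 0.992), and its mice overlapped, 562 CPM at 4 weeks lying below 615 CPM at 2 weeks. Tph1 (-0.12, SE 0.32) and Ddc (-0.07, SE 0.18) both had an adjusted p of 0.993. Slc18a2, with 21 UMIs, and Hdc, with 5, were too few to be tested. Their means were 3.65 CPM at 2 weeks and 18.1 CPM at 4 weeks for Slc18a2 (again no overlap of mice) and 4.17 and 0.888 CPM for Hdc. DESeq2, as an alternative, called 12 genes and neither Ddc nor Tac1, and gave no adjusted p for Tph1 or Slc18a1.

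The Tac1 result depended on a mouse. Without the first 2-week mouse Tac1 was higher at 4 weeks by 1.29 on the log2 scale (edgeR adjusted p = 2.81e-06), in a fit that called 155 genes in all and took the spread of the lone 2-week mouse from the other group. Without the second 2-week mouse 70 genes were called, and without the first 4-week mouse 19. Over the 4 fits that each left out a mouse, the Tac1 difference ran from 0.32 to 1.29 and that of Slc18a1 from 0.47 to 0.89. With all 4 mice, the called genes included Ttr, which encodes the carrier transthyretin, at 210 and 217 CPM at 2 weeks and 569 and 616 at 4 weeks (log2 difference 1.45, adjusted p = 0.00744), and Tspan8, a membrane protein gene, at 91.7 and 61.5 CPM and then 223 and 201 CPM (adjusted p = 0.0189). Rnase1 (-1.65, adjusted p = 0.0151), Nupr1 (-1.58, adjusted p = 0.0189) and Sycn (-1.21, adjusted p = 0.0280), the first and last of which are acinar secretory genes, were lower. Of the enterochromaffin list 7 genes were tested and none was called, 5 being higher and 2 lower with a median log2 difference of 0.30, beside 0.00 over all genes. Of the cofactor list 5 were tested and none was called (median -0.09), and of the acinar enzymes 11 were tested and none was called (median -0.22).

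The share of ECL (Tac1+) cells with a UMI was compared over mice with a two-sided exact permutation test, in which 2 against 2 mice cannot give a p below 0.333. Tac1-positive cells were 40.2 ± 8.99% at 2 weeks and 66.8 ± 2.27% at 4 weeks, and Tph1-positive cells 9.58 ± 0.394% and 17.5 ± 0.108% (SD, n = 2 mice). For both, the mice of the 2 times did not overlap, as was so for 43.5% of the 7349 genes tested (386 higher and 2814 lower at 4 weeks). The p of 0.333 shows no more than that, and neither share is called changed. The 4-week cells were the shallower ones, yet both shares were higher in them. Thinned to 2000 UMIs, the difference was 19.0 percentage points for Tac1 in place of 26.7, and 2.79 for Tph1 in place of 7.89. Thinning also lowered the shares themselves, as means over mice from 53.5% to 32.3% for Tac1 and from 13.5% to 6.99% for Tph1. A smaller difference in points need not be a smaller relative difference. Shares of the other members overlapped between times: Ddc 86.2 and 91.7%, Slc18a1 18.2 and 19.2%, Slc18a2 4.19 and 9.15%, and Hdc 4.65 and 0.877%.

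**Figure D5:**
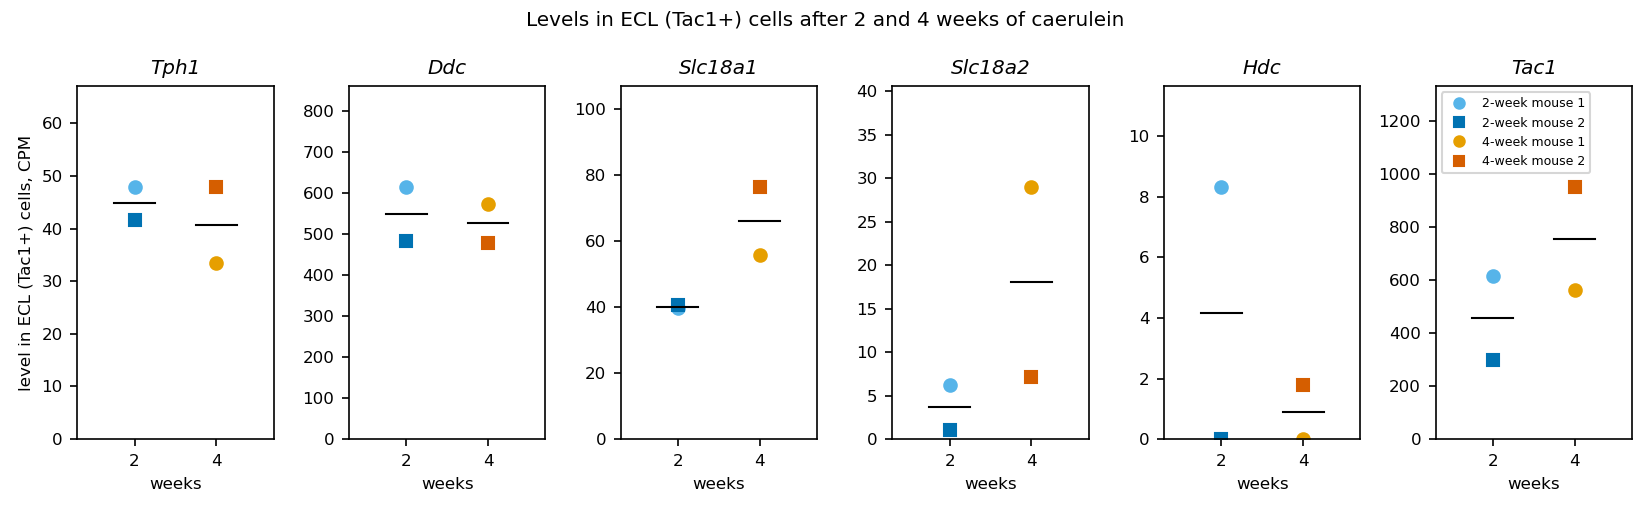
Level (CPM) of each member in ECL (Tac1+) cells after 2 and 4 weeks of caerulein, with each point a mouse and each line the mean of 2 mice, on a separate scale for each gene. Both 4-week mice lie above both 2-week mice for Slc18a1 and Slc18a2, and the times overlap for the other 4 members, beside 32.6% of all tested genes whose mice did not overlap.

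In the other types tested, no member passed either. EEC-Progenitor (Neurog3+) cells had enough counts for Ddc alone (0.26, SE 0.21, edgeR adjusted p = 0.981), with 4 of 8833 genes called (0.0453%). In all EEC cells, which include the ECL (Tac1+) cells and so are no separate evidence, all 6 members were tested and 0 of 11869 genes passed (0%, with 478 at an unadjusted p under 0.05 and 14 called by DESeq2). Slc18a1 again had a low unadjusted p of 0.0293 (0.73, SE 0.27, edgeR adjusted p = 0.986). Neither its mice nor those of Ddc overlapped between times, as for 32.5% of the genes tested. Ddc differed by 0.27 (216 CPM at 2 weeks, 246 CPM at 4 weeks, edgeR adjusted p = 0.986). The log2 difference of Slc18a2 in EEC cells, 0.36 (edgeR adjusted p = 0.991), rested on single mice. It was 1.52 without the first 2-week mouse (edgeR adjusted p = 0.0374, with the lone 2-week mouse assumed to vary like the 4-week mice), but -0.33 without the second 2-week mouse, -0.11 without the first 4-week mouse and 0.70 without the second. In Tuft cells, where 0 of 10967 genes passed (0%, with 739 at an unadjusted p under 0.05 and 30 called by DESeq2), only Ddc was tested. Its means were 6.34 CPM at 2 weeks and 2.72 CPM at 4 weeks with no overlap of mice, as for 35.5% of the genes tested. The log2 difference was -1.41 (SE 0.51), its unadjusted p was 0.0220, and its edgeR adjusted p was 0.608. The counts of called genes in these 3 types depended on the mouse left out: without the first 2-week mouse they were 195 in EEC-Progenitor (Neurog3+), 366 in EEC and 273 in Tuft cells, without the second 141, 207 and 52, without the first 4-week mouse 12, 3 and 26, and without the second 21, 0 and 5.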

How the data were processed

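Raw UMI counts per gene and cell were deposited by the authors, with no normalization, as a merged table of 21140 cells, a table of 13362 typed EYFP-positive cells and a table of 2586 tuft and enteroendocrine cells. Both smaller tables equal the same cells of the merged one (summed absolute difference 0). Cell Ranger 4.0.0, Seurat 3.2.3 and mm10 are named in the submitters' processing notes. Total UMIs per mouse ran from 72459531 to 103610807. Cell types are the authors' deposited labels.

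Counts were summed per mouse and type, and a mouse entered a type with at least 20 cells. Times were compared with edgeR 4.0.16 (quasi-likelihood, robust, TMM, filterByExpr; R 4.3.3), p-values being adjusted over all genes of a type at 0.05, and DESeq2 1.42.0 was an alternative. The numbers of the mice are accession order. Each p measures only the spread between these mice. Shares used Python 3.11.15 (numpy 2.4.6, scipy 1.17.1, pandas 2.3.3). Expected shares after thinning to 2000 UMIs were computed exactly, leaving out shallower cells, 3 of them ECL (Tac1+). The fits were tested on simulated data first.

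Named genes are the members, genes of the lists, the 5 genes most like each member (1 of those for Hdc is not reported here), and up to 3 called genes per direction with at least 10 CPM and non-overlapping mice. The members and lists were chosen with earlier results of these data known. The splits by Tph1 and Tac1, the hormone-rich minimum of 10000 CPM, both alternatives resting on it and the marker gates for 7778 cells without a type were chosen after the data had been seen. No doublet caller was run, and an alternative left out the 13 ECL (Tac1+) cells with the most UMIs (5% per mouse).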

Additional observations from a re-analysis of the deposited data

Results flagged for a closer look

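These values come from the 7778 cells without a deposited type, of which only the B-cell-marked cells were used above, as background. Cells were gated on marker lists, and B-cell-marked cells served as background. Hdc measured 752 CPM (exact Poisson interval 500 to 1087, counting error only) in 16 neutrophil-marked cells, from 28 UMIs in 9 cells at a median of 2251.5 UMIs, against 0.274 CPM (1 UMI) in 638 B-cell-marked cells. It is thus higher in these few cells than in any typed population, and EYFP was detected in 1 of the 16. No cell passed the mast cell and basophil gate.

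In 175 pan-endocrine-marked cells without a type (median 12710 UMIs, EYFP found in 70), 5 members lay above the B-cell-marked background. Tph1 measured 11.5 CPM (11 cells), Slc18a1 16.3 CPM (21 cells), Slc18a2 7.16 CPM (10 cells) and Tac1 65.6 CPM (18 cells, with up to 96 UMIs in 1). Each of these 4 had no UMI in B-cell-marked cells. Ddc measured 123 CPM (98 cells) against 2.19 CPM. Which endocrine types these cells belong to was not tested.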

How the results depend on the processing

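No paired analysis was possible because the numbers of the mice are accession order and pair nothing. Only 2 mice stand behind each time, and Hdc (5 UMIs) and Slc18a2 (21 UMIs) are limited by depth. Of 48 alternative values for levels, 46 moved by less than the spread between mice. Leaving out 1 mouse cannot move a mean past that spread, so those values could not have shown a shift. For Hdc (2.53 ± 3.96 CPM) and Slc18a2 (10.8 ± 12.4 CPM) the spread exceeded the mean, so no fall could count. With 1 mouse left out, Hdc fell as far as 0.592 CPM and Slc18a2 as far as 4.80 CPM. Tph1, at 42.8 CPM, became 53.4 as a mean over cells and 54.4 without hormone-rich cells. Of 48 values for shares 42 stayed within that spread, under the same limits. The Hdc share counted among them although it fell from 2.76% to 0% at 2 or more UMIs. Thinning to 2000 UMIs gave 6.99% for Tph1 (13.5% before, as a mean over mice), 56.6% for Ddc (89.0%), 8.92% for Slc18a1 (18.7%) and 32.3% for Tac1 (53.5%). Asking for at least 2 UMIs gave 76.8% for Ddc and 12.5% for Slc18a1. Thinned co-detection was 5.76 times the expected number for Tph1 with Slc18a1 and 5.29 for Slc18a1 with Slc18a2, the latter from 2.24 cells against 0.423.

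Differences in share between times reversed for Ddc at 2 or more UMIs (-6.16 percentage points, 5.46 before) and for Slc18a1 without hormone-rich cells (-0.188, 0.978 before). Leaving out 1 mouse gave -3.31 to 5.27 for Slc18a1 and -8.43 to 0.877 for Hdc (-3.77 before). The causes were not tested.

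Genes called over time in ECL (Tac1+) cells numbered 6, 12 with DESeq2, 54 with no filter, 0 with a spread estimate that was not robust, and 6 to 155 with 1 mouse left out. In EEC-Progenitor (Neurog3+) cells 4 became 10, 50 and 12 to 195 under the first, second and last of these. In EEC cells 0 became 14, 74 and 0 to 366, and in Tuft cells 0 became 30, 266 and 5 to 273. Log2 differences of members, with 1 mouse left out, crossed 0 for Tph1 (-0.40 to 0.0816) and Ddc (-0.22 to 0.0792) in ECL (Tac1+), for Ddc in EEC-Progenitor (Neurog3+) (-0.10 to 0.56) and for Tph1 (-0.48 to 0.32), Slc18a2 (-0.33 to 1.52) and Hdc (-1.54 to 2.03) in EEC cells. DESeq2 called no member to which it gave an adjusted p.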

Other observations

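Th, the first enzyme of dopamine synthesis, was highest in Delta (Sst+) cells, at 50.5 ± 8.24 CPM (41.0 to 60.4 over 4 mice) in 53 of 144 cells, followed by 8.81 ± 3.62 CPM in Ppy+ cells. Hrh3, a histamine receptor, was highest in EEC-Progenitor (Neurog3+) cells, at 14.8 ± 4.61 CPM in 54 of 391 cells, against 3.09 ± 1.10 CPM in Epsilon (Ghrl+) cells. Maob was highest in Ppy+ cells at 29.5 ± 16.8 CPM, and its mice overlapped neither ECL (Tac1+) cells (7.10 to 14.6 CPM) nor Delta (Sst+) cells (7.46 to 15.5 CPM).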
